A study of Mus musculus with 10 samples.

Results

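The gene set described here is TREM2 and the genes that mark lipid-associated macrophages, together with the lipases Lpl and Lipg. It holds 10 of the 55421 genes in the count table, namely Trem2, Tyrobp, Apoe, Gpnmb, Lpl, Lipg, Fabp4, Fabp5, Spp1 and Cd9, found by matching each Ensembl identifier to its symbol in the GRCm38 annotation. The set was selected on measured values of these same samples, since Trem2 was known to be lower in the SHP-2-deleted cells and Lipg was known to be higher in the deleted spleen cells. For that reason Trem2 in every comparison, and Lipg in all but the comparison within tumor macrophages, are given as a description with no test, and the other members were tested in a fit over all genes.

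RNA was sequenced from myeloid cells collected at day 15 after MC17-51 fibrosarcoma cells were placed under the skin of mice that were 8 to 12 weeks old at that implantation. All mice carried floxed alleles of Ptpn11, the gene that encodes the tyrosine phosphatase SHP-2. Control mice (Shp2f/f) had the floxed alleles alone, while Shp2f/fLysMcre mice also expressed Cre recombinase from the lysozyme M promoter, which is active in neutrophils, monocytes and macrophages, so that the deletion is limited to cells that have used that promoter. Myeloid-derived suppressor cells (MDSC), immature myeloid cells that accumulate in tumor-bearing hosts, came from the spleen after separation with magnetic beads (2 samples of each genotype), and tumor-associated macrophages (TAM) were sorted from the tumors of the same animals as live CD45+CD11b+F4/80+Ly6G- cells (3 samples of each genotype). Cell type, organ and isolation method therefore cannot be told apart. The sources used here do not say whether a library pooled several mice, so p-values measure the spread between these samples, which may be technical.

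TREM2 is a surface receptor of macrophages that binds lipids, lipoproteins and debris of dying cells, and it signals through the adaptor TYROBP (DAP12), whose cytoplasmic motif recruits the kinase SYK. In adipose tissue, atherosclerotic plaque, the diseased brain and tumors, macrophages that take up lipid express TREM2 together with apolipoprotein E, the glycoproteins GPNMB and osteopontin (Spp1), the tetraspanin CD9, the fatty acid binding proteins FABP4 and FABP5 and lipoprotein lipase (Lpl). Lpl and endothelial lipase (Lipg) are secreted enzymes of the same family: Lpl mainly hydrolyzes triglycerides of chylomicrons and very low density lipoprotein, and Lipg mainly hydrolyzes phospholipids of high density lipoprotein.

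The promoter sequences of 4 members are shown because Apoe, Gpnmb and Spp1 were higher together in SHP-2-deleted TAM while Trem2 was not. RefSeq promoter windows on GRCm38.p6 were matched for 5 of the 10 members (Trem2, Apoe, Gpnmb, Spp1 and Cd9). Each line gives the 250 bases before the transcription start that lies farthest upstream, read 5′ to 3′ on the strand of the gene, with matches to the searched motifs in capitals.
Trem2, chr17:48346151-48346400, plus strand: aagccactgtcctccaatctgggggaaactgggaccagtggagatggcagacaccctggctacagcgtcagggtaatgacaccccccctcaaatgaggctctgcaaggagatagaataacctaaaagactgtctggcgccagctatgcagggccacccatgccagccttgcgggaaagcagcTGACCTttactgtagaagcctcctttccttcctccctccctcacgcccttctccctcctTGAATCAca
Apoe, chr7:19699189-19699438, minus strand: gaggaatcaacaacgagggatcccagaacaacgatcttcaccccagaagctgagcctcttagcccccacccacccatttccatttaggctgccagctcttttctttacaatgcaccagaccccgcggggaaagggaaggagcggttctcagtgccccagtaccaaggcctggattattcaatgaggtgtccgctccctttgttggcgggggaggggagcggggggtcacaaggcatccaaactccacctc
Gpnmb, chr6:49036268-49036517, plus strand: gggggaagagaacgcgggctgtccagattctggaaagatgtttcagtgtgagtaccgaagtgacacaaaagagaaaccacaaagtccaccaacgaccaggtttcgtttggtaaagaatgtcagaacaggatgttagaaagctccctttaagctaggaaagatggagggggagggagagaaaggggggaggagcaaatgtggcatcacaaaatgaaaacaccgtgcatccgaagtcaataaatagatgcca
Spp1, chr5:104434861-104435110, plus strand: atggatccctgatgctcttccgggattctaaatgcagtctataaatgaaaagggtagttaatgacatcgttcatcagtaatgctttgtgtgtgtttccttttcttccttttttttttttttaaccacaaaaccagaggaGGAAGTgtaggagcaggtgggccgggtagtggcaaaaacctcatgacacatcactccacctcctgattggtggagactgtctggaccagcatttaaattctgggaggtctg

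Motifs were searched on both strands in the 8 windows of 300 bases that belong to these members, which include 50 bases after each start. CACGTG, the E-box read by MiT/TFE factors, was in none of the 8 windows and in 7.15% of all 32851 windows. TGANTCA, a pattern wider than the AP-1 site TGA(C/G)TCA that it includes, began 9 bases before the start of Trem2 and 8 bases after the start of Gpnmb. It was in 7.81% of all windows. The match at Trem2 reads TGAATCA and is therefore not the AP-1 site itself. GGAAGT, an ETS core, began 111 bases before the start of Spp1 and was in 23.8% of all windows. AGGTCA, a nuclear receptor half-site, lay on the minus strand 68 bases before the start of Trem2 and was in 16.3% of all windows. These matches are letters in a window and not measured binding, and no 2 of these genes shared a motif other than TGANTCA.

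The libraries held 28844660 to 38222998 counts, and levels below are CPM (the count of a gene relative to the library's size) after TMM scaling unless another unit is named. Ptpn11, the targeted gene, was lower in the deleted TAM, at 53.0 ± 1.82 CPM against 122 ± 2.39 CPM (SD, n = 3), a log2 difference of -1.24 ± 0.039 (SE; edgeR adjusted p = 2.96e-09). In MDSC it was 87.3 ± 10.6 CPM against 106 ± 9.88 CPM (SD, n = 2), a log2 difference of -0.29 ± 0.14 that did not pass the test (edgeR adjusted p = 0.361). The genotype effect on Ptpn11 itself differed between the cell types, by -0.93 ± 0.12 on the log2 scale (edgeR adjusted p = 0.00045). The counts cover the whole gene and not the floxed part alone, and a loss of the transcript is not evident in the MDSC libraries, which are called deleted here after their labels. The spleen cells were GR-1+ per the series design text and Ly6G+Ly6C- granulocytic cells per the methods. Csf1r and Ccr2, which mark monocytes, were at 1031 to 1442 and 1209 to 1964 CPM in them while Ly6g was at 8.92 to 33.2 CPM. Other neutrophil genes were high: the list of 10 neutrophil markers that holds Ly6g summed to 9639 to 30280 CPM of the total count. The list of 8 monocyte markers summed to 8628 to 10540 CPM, so transcripts of both kinds were abundant. Replicate 2 of the deleted MDSC stood apart with transcripts of fibroblasts (Col1a1 at 173 CPM against at most 14.2 CPM in the other MDSC libraries, Tnc at 75.6 against at most 0.375 CPM). All 3 control TAM libraries held transcripts of pancreatic islets (Ins2 at 489 to 4261 CPM, against 3.71 to 48.0 CPM in the deleted TAM). Member values without deleted MDSC replicate 2 or control TAM replicate 3, which held the most islet transcripts, are given below where a call moved. For the gene lists, medians are given without that MDSC library and counts without that TAM library.

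In TAM, SHP-2 deletion went with higher Lipg, Apoe, Spp1, Fabp5, Fabp4 and Gpnmb and with lower Lpl and Cd9, while the libraries of the genotypes overlapped for Trem2. All 9 members tested passed the threshold (edgeR quasi-likelihood test, Benjamini-Hochberg adjusted p under 0.05 over 14446 genes), 7 of them higher and 2 lower in Shp2f/fLysMcre. In this comparison 50.2% of all genes tested passed, 23.9% higher and 26.3% lower, so a call by itself is common here and the sizes carry more than the count. The median log2 difference of the 9 members was 0.60, beside -0.013 for all genes tested. In MDSC, where 4.28% of 14806 genes passed (3.76% higher and 0.52% lower), 1 of 8 members tested passed, Cd9, which was higher, and the median log2 difference of the 8 was -0.13 beside -0.015 for all genes. The median over the 8 and the call point in opposite directions. Leaving out any MDSC library leaves a lone library in its group, assumed to vary like the other group. Calls in such fits moved widely over all genes, so the member calls are given beside those of all genes in the closing section. DESeq2 on all 4 libraries called 3 members.

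**Figure D1:**
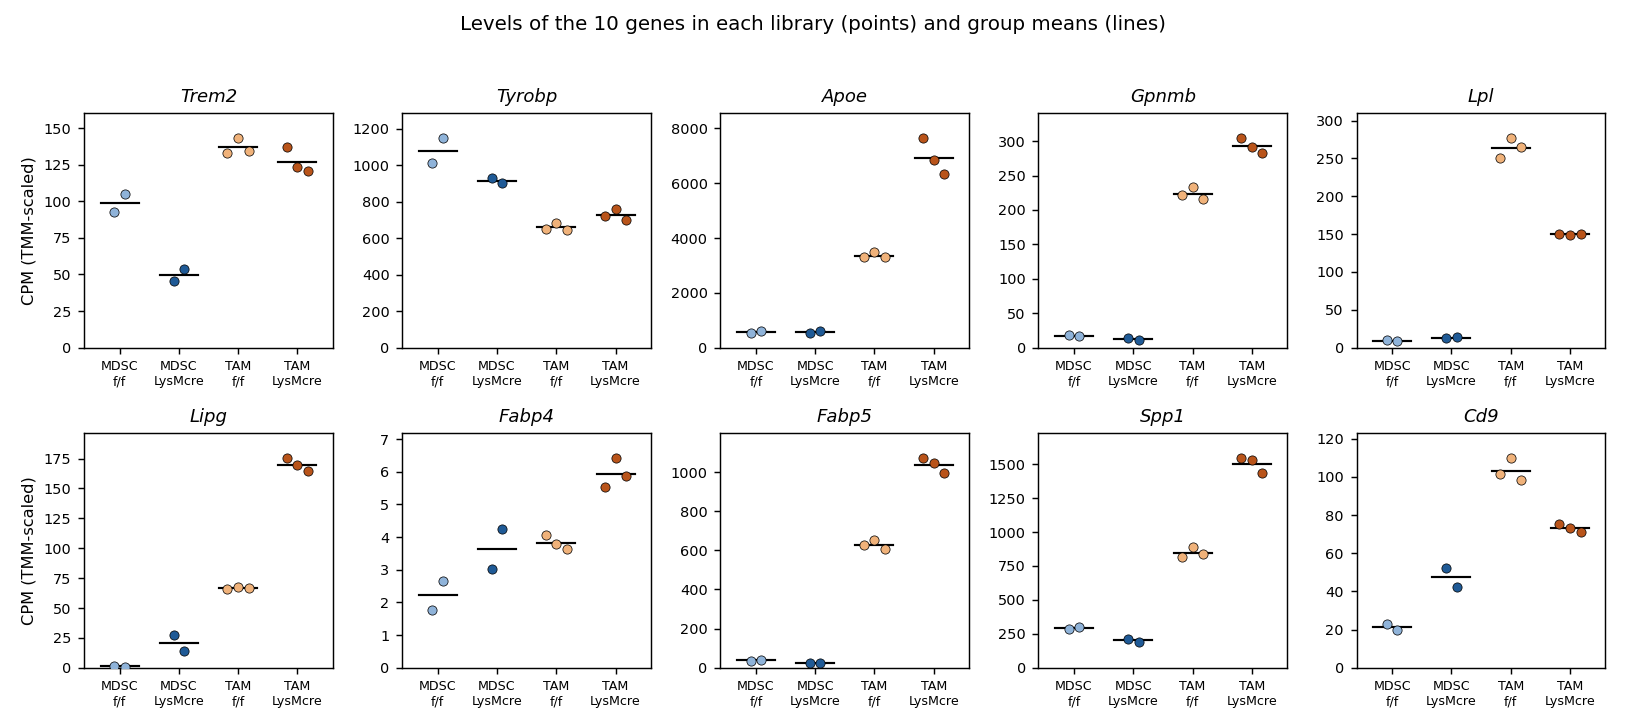
Each panel shows 1 gene, with its level in CPM after TMM scaling on a linear axis from 0 and the 4 groups along the bottom. Points are libraries and lines are group means. Apoe, Lipg, Fabp5 and Spp1 were highest in all 3 deleted TAM libraries, and Trem2 was lowest in the deleted MDSC at 45.2 and 53.6 CPM.

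The receptor and its adaptor showed the smallest differences in TAM. Trem2 (ENSMUSG00000023992, chr17:48346401-48354147, plus strand) was at 133, 143 and 135 CPM in the control TAM and at 137.0, 123 and 121 CPM in the deleted TAM. The groups overlapped, since the highest deleted library lay above 2 of the 3 control libraries. The log2 difference was -0.15 ± 0.051 (SE), and with scaling by total counts it was -0.24. In MDSC, Trem2 was at 92.9 and 105 CPM in the controls and at 45.2 and 53.6 CPM in the deleted cells, with no overlap, and the log2 difference of -1.01 ± 0.13 corresponds to a level 2.02-fold lower. Without the deleted replicate 2 or any other single library this value stayed between -1.13 and -0.92.

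Tyrobp (ENSMUSG00000030579, chr7:30413760-30417585, plus strand), the adaptor that carries the signal of TREM2 and of several other receptors, was at 652, 681 and 644 CPM in the control TAM and at 720, 757 and 700 CPM in the deleted TAM. The deleted libraries were all above the controls, by a small margin. It was 1.07-fold higher, a log2 difference of 0.10 ± 0.038 (edgeR adjusted p = 0.0431). This call rested on settings: scaling by total counts gave 0.0047 (edgeR adjusted p = 0.922), and the adjusted p was 0.142 without control TAM replicate 1, 0.109 without control replicate 3 and 0.198 without deleted replicate 2 in the same edgeR test. In MDSC, Tyrobp was at 1010 and 1149 CPM in the controls and 928 and 901 CPM in the deleted cells. The log2 difference of -0.25 ± 0.13 did not pass (edgeR adjusted p = 0.375).

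Apoe (ENSMUSG00000002985, chr7:19696109-19699188, minus strand), the apolipoprotein that carries lipid out of macrophages and binds TREM2, was at 3296, 3498 and 3290 CPM in the control TAM and at 7654, 6835 and 6323 CPM in the deleted TAM. Every deleted library was above every control. The difference was 2.01-fold, with a log2 value of 1.01 ± 0.054 (edgeR adjusted p = 1.13e-07). In MDSC the genotypes could hardly be told apart, with 527 and 611 CPM in the controls and 525 and 610.0 CPM in the deleted cells. The log2 difference there was -0.010 ± 0.14 (edgeR adjusted p = 0.981).

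The lipases moved in opposite directions in TAM. Lipg (ENSMUSG00000053846, chr18:74939322-74961263, minus strand) was at 66.3, 67.4 and 66.8 CPM in the control TAM and at 175, 169 and 164 CPM in the deleted TAM. It rose 2.48-fold, by 1.31 ± 0.038 on the log2 scale (edgeR adjusted p = 2.5e-09). Lpl (ENSMUSG00000015568, chr8:68880491-68907448, plus strand) was at 250.0, 277 and 265 CPM in the control TAM and at 150.1, 149 and 151 CPM in the deleted TAM. It fell by 0.85 on the log2 scale, 1.81-fold (SE 0.043, edgeR adjusted p = 7.07e-08). Neither lipase had overlapping groups. As a result the order of the enzymes changed per exon length: Lpl was above Lipg in the control TAM (25.2 against 14.2 RPKM) and below it in the deleted TAM (14.3 against 36.0 RPKM). The RPKM values rest on joined annotated exons of 10478 bases for Lpl and 4715 for Lipg, and the order changed in CPM as well.

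In MDSC both lipases were higher in the deleted cells, from low levels. Lipg was at 1.25 and 1.07 CPM in the controls and at 27.3 and 13.9 CPM in the deleted cells. The groups did not overlap, but deleted replicate 1 was nearly 2-fold above deleted replicate 2. The log2 difference was 4.15 ± 0.40, or 17.7-fold, and it was 3.54 without deleted replicate 1. Lpl was at 9.38 and 8.17 CPM in the control MDSC and 12.41 and 13.96 CPM in the deleted MDSC. Its log2 difference of 0.58 ± 0.15 did not pass (edgeR adjusted p = 0.11), and in the same test it passed without deleted replicate 2 (adjusted p = 0.0215) and without deleted replicate 1 (adjusted p = 0.0256), each time with 1 deleted library and the spread taken from the controls alone.

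The fatty acid binding proteins, which carry fatty acids inside the cell, were measured at very different depths. Fabp5 (ENSMUSG00000027533, chr3:10012548-10016607, plus strand) was at 626, 653 and 607 CPM in the control TAM and at 1071, 1048 and 995 CPM in the deleted TAM. It rose 1.61-fold with no overlap, by 0.69 ± 0.039 on the log2 scale (edgeR adjusted p = 1.6e-07). In MDSC, Fabp5 was at 35.8 and 39.8 CPM in the controls and at 24.4 and 26.4 CPM in the deleted cells, the opposite order. That log2 difference of -0.58 ± 0.12 missed the threshold (edgeR adjusted p = 0.0619) and passed it without deleted replicate 2 (adjusted p = 0.000408) or deleted replicate 1 (adjusted p = 0.0201), where 1 deleted library was left and the controls alone gave the spread.

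Fabp4 (ENSMUSG00000062515, chr3:10204088-10208576, minus strand), the form best known from adipocytes, was near the bottom of the range throughout. It was at 4.06, 3.78 and 3.63 CPM in the control TAM and at 5.53, 6.42 and 5.88 CPM in the deleted TAM, and it rose by 0.60 ± 0.11 on the log2 scale (edgeR adjusted p = 0.000628). In MDSC it was at 1.77 and 2.66 CPM in the controls and at 3.04 and 4.26 CPM in the deleted cells, a log2 difference of 0.71 ± 0.31 (edgeR adjusted p = 0.297). The adipocyte markers Lep and Pck1 were at 0 in all 10 libraries and Adipoq was at no more than 0.173 CPM.

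Gpnmb, Spp1 and Cd9 encode proteins of the cell surface or its surroundings. Gpnmb (ENSMUSG00000029816, chr6:49036546-49070929, plus strand), a transmembrane glycoprotein of lysosomes and the surface, was at 222, 233 and 216 CPM in the control TAM and at 305, 291 and 283 CPM in the deleted TAM. The groups did not overlap, and the gene rose 1.28-fold, by 0.36 ± 0.042 on the log2 scale (edgeR adjusted p = 3.6e-05). In MDSC its values ran the other way, at 17.9 and 17 CPM in the controls and 13.7 and 11.3 CPM in the deleted cells. The log2 difference of -0.49 ± 0.15 did not pass (edgeR adjusted p = 0.16), and it passed without deleted replicate 1 (adjusted p = 0.0125), with the spread from the controls alone.

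Spp1 (ENSMUSG00000029304, chr5:104435118-104441050, plus strand), which encodes the secreted matrix protein osteopontin, was at 816, 887 and 838 CPM in the control TAM and at 1545, 1531 and 1435 CPM in the deleted TAM. It rose 1.73-fold with no overlap, by 0.79 ± 0.039 on the log2 scale (edgeR adjusted p = 6.54e-08). In MDSC it was at 282 and 303 CPM in the controls and at 213 and 191 CPM in the deleted cells. There the log2 difference was -0.54 ± 0.12 (edgeR adjusted p = 0.0863), and it passed without deleted replicate 2 (adjusted p = 0.00485) or deleted replicate 1 (adjusted p = 0.00889), again with 1 deleted library and the spread from the controls alone. Exons of Spp1 overlap those of Gm42793 on the same strand, which received 882 counts over the 10 libraries against 266314 for Spp1. How reads in the shared exons were counted is not known, and these counts do not show how many were left out.

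Cd9 (ENSMUSG00000030342, chr6:125460266-125494791, minus strand), a tetraspanin that organizes other membrane proteins, moved in opposite directions in the cell types. It was at 102, 109.9 and 98.5 CPM in the control TAM and at 75.6, 73.4 and 71.2 CPM in the deleted TAM, and it fell by 0.53 on the log2 scale (SE 0.044, edgeR adjusted p = 2.59e-06). In MDSC it was at 23.1 and 20.0 CPM in the controls and at 52.2 and 42.6 CPM in the deleted cells. It rose 2.19-fold there, by 1.13 ± 0.16 on the log2 scale (edgeR adjusted p = 0.0248). Leaving out control MDSC replicate 1 gave 1.24 (edgeR adjusted p = 0.59) and leaving out control replicate 2 gave 1.03 (edgeR adjusted p = 0.673), with the spread from the deleted libraries alone. With no filter on low counts the edgeR adjusted p was 0.0644. The genes Gm28809 and Gm26728 lie on the opposite strand across Cd9 with 168 and 33 counts in all, against 23110 for Cd9.

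**Figure D2:**
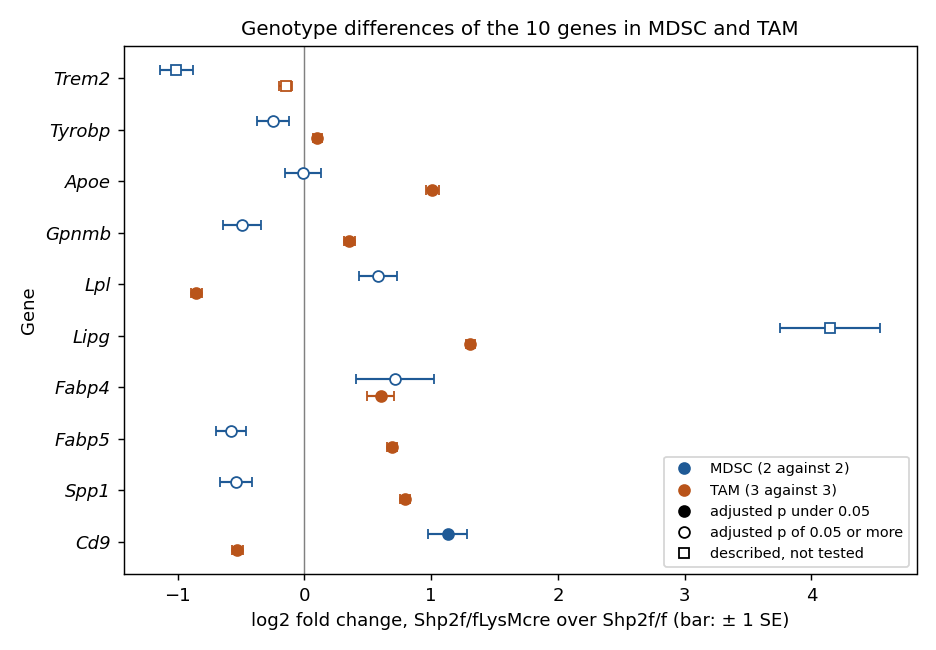
Points give the log2 fold change of Shp2f/fLysMcre over Shp2f/f for each gene, in MDSC (2 against 2 libraries) and TAM (3 against 3), with bars of ± 1 SE. Filled points passed the edgeR test at an adjusted p under 0.05, and open squares were described without a test. Lpl and Cd9 lie left of 0 in TAM and right of it in MDSC, and Gpnmb, Fabp5 and Spp1 lie the other way round.

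The difference of the genotype effect between the cell types was tested directly in a fit of all 10 samples, where 24.9% of 16581 genes passed (12.2% higher and 12.7% lower in TAM than in MDSC). Of the 8 members tested 7 passed. The effect in TAM exceeded that in MDSC for Spp1 by 1.36 ± 0.10, for Fabp5 by 1.30 ± 0.10, for Apoe by 1.05 ± 0.15, for Gpnmb by 0.88 ± 0.12 and for Tyrobp by 0.38 ± 0.099 on the log2 scale. For Cd9 and Lpl the effect in TAM was below that in MDSC, with differences of -1.63 ± 0.14 and -1.40 ± 0.11. The edgeR adjusted p ranged from 2.52e-05 for Spp1 to 0.0207 for Tyrobp. This fit shares 1 estimate of the spread between the cell types. The common variation between replicates was 0.189 in MDSC alone, 0.0595 in TAM alone and 0.141 in this fit. The SE of Lpl here is below its SE of 0.149 in MDSC alone, so SE and p-values of these differences may be too small. Fabp4 showed no detectable difference of the effects, at -0.084 ± 0.29 (edgeR adjusted p = 0.877). As a description, the difference was 0.89 for Trem2 and -2.80 for Lipg. The call of Tyrobp was lost without control MDSC replicate 2 (0.31, edgeR adjusted p = 0.111), without control TAM replicate 1 (0.37, adjusted p = 0.0537) or replicate 3 (0.36, adjusted p = 0.06), and without deleted TAM replicate 2 (0.35, adjusted p = 0.062).

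With SHP-2 intact, every member but Tyrobp was more abundant in tumor macrophages than in spleen MDSC, from 1.38-fold for Trem2 to 57.4-fold for Lipg, these being described without a test. In the Shp2f/f samples 78.8% of 15659 genes differed between TAM and MDSC (40% higher and 38.8% lower in TAM), and all 8 members tested passed, 7 higher and 1 lower, with a median log2 difference of 2.41 beside 0.012 for all genes. Lpl was 30-fold higher in TAM, with a log2 difference of 4.91 ± 0.081, Fabp5 16.6-fold (4.05 ± 0.068), Gpnmb 12.8-fold (3.68 ± 0.059) and Apoe 5.9-fold (2.56 ± 0.068). Cd9 was 4.78-fold, Spp1 2.89-fold and Fabp4 1.72-fold higher. Tyrobp was 1.64-fold lower in TAM. The edgeR adjusted p of these members was at most 0.00429. These values share the control samples with the genotype comparisons. In bulk samples, fewer cells of a type and less RNA per cell cannot be told apart.

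Per exon length, the members spanned more than 3 orders of magnitude. This length joins all annotated exons of a gene and can exceed that of the transcript in use. For Fabp4 it was 4489 bases, the whole span of the gene. The order of genes below therefore depends in part on the length used. In the control TAM Apoe was the most abundant at 1572 RPKM, followed by Tyrobp at 988, Spp1 at 514 and Fabp5 at 176 RPKM. Cd9, Gpnmb, Trem2, Lpl and Lipg lay between 50.5 and 14.2 RPKM, and Fabp4 was at 0.851 RPKM. In the control MDSC the order was led by Tyrobp at 1618 RPKM, with Apoe at 266 and Spp1 at 178 RPKM, Trem2 at 20.0 RPKM above Fabp5 and Cd9 at 10.6 and 10.5 RPKM, and Lipg last at 0.246 RPKM. Trem2 thus exceeded Gpnmb, Lpl and Lipg per length in control MDSC and was of the same order as these in control TAM. Taken over all libraries, the 10 genes received 0.19% to 0.233% of the counts in MDSC, 0.629% to 0.658% in control TAM and 0.966% to 1.08% in deleted TAM, and Apoe alone made up most of the gain.

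**Figure D3:**
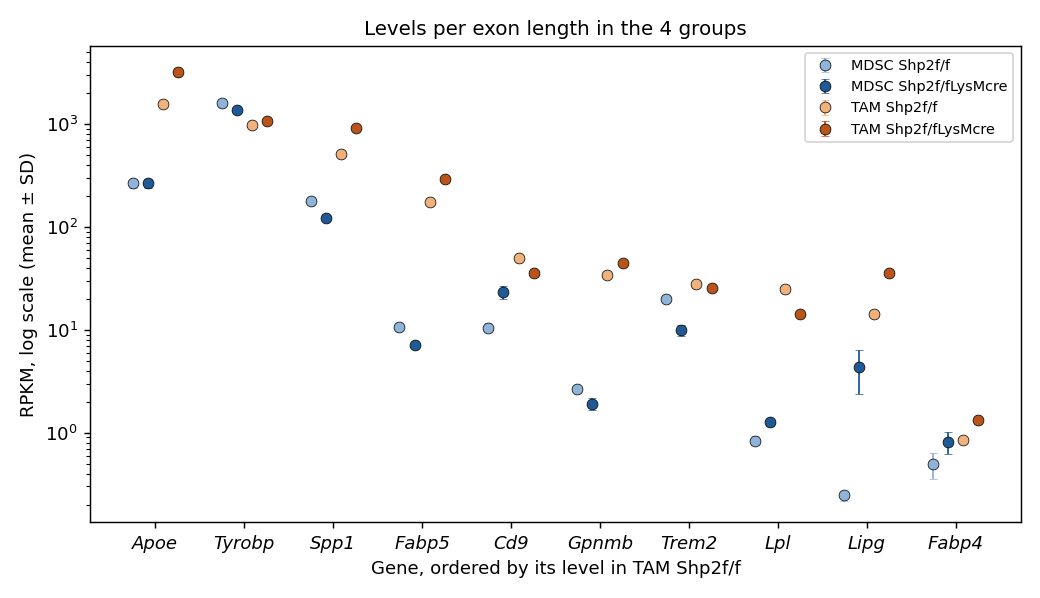
The vertical axis is the level per exon length in RPKM on a log scale, as mean ± SD of 2 MDSC or 3 TAM libraries a group, and genes are ordered by their level in control TAM. Apoe and Tyrobp lie near or above 1000 RPKM in TAM, and Fabp4 lies near 1 RPKM in all groups.

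Among the groups, neighbours in the order of levels were separated for most members. The share of all genes that separate in this way was not counted. Of all genes tested, 50.2% passed between the TAM genotypes and 78.8% between the cell types of control mice. The separation is therefore a description and is not read as a trait of the members. Apoe, Fabp5, Gpnmb and Spp1 were ordered as deleted TAM, control TAM, control MDSC and deleted MDSC, with Apoe overlapping between the MDSC genotypes. Lipg and Fabp4 were ordered as deleted TAM, control TAM, deleted MDSC and control MDSC, with Fabp4 overlapping between control TAM and deleted MDSC. Lpl and Cd9 were highest in control TAM and lowest in control MDSC. Trem2 overlapped between the TAM genotypes, which were both above the control MDSC. Tyrobp alone was highest in control MDSC.

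The genes around TREM2 signaling were mostly higher in the deleted TAM, by small amounts. In TAM 23.9% of all genes tested were called higher and 26.3% lower, so calls are common there. Of 24 relatives of TREM2 and signaling genes, 17 rose, 3 fell and 4 did not pass in TAM, with a median log2 difference of 0.22. The 3 largest among abundant genes were Ptpn11 itself, Malt1, a protease of the CARD9 pathway, which fell by 0.92 (SE 0.094), and Treml2, a TREM family receptor, which rose by 0.78 ± 0.047. The kinase Syk rose by 0.21 ± 0.044 and Plcg2, a phospholipase downstream of TREM2, was at -0.028 ± 0.037 without passing (chosen after their values were seen, as the first steps after TYROBP). In MDSC 0 of the 24 passed by edgeR, with 3 at an unadjusted p under 0.05 and 1 called by DESeq2, and the median was -0.17. Scaling by total counts left 13 higher and 4 lower in TAM.

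Genes of lipid handling were called in both directions in TAM, where 23.9% of all genes tested were called higher and 26.3% lower. Of 18 genes of lipid storage, hydrolysis and efflux tested, 11 rose and 1 fell. They were led by Plin2, which coats lipid droplets (0.81 ± 0.047), Lipa, the lysosomal acid lipase (0.79 ± 0.038), and Nceh1, a cholesteryl ester hydrolase (0.68 ± 0.043). Of 12 genes of lipoprotein and fatty acid uptake 6 rose and 2 fell: the scavenger receptor Cd36 rose by 1.39 ± 0.063, while the oxidized lipoprotein receptor Olr1 fell by 0.41 (SE 0.13). Of 11 genes in the list of nuclear receptors and MiT/TFE factors 10 rose and 1 fell. The list also holds Srebf1 and Srebf2, which belong to neither class, and all its genes are called nuclear receptor genes below. It was led in size by Pparg (1.17 ± 0.068), Rxra (0.70 ± 0.037) and Mitf, which fell by 0.61 (SE 0.036). Medians of these lists were 0.23, 0.16 and 0.21. The cofactors and inhibitors of the lipases were mostly not measured, with 6 of 14 tested in TAM, of which Furin, a protease that cleaves lipases, fell by 0.19 (SE 0.036) and 5 did not pass.

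Scaling by total counts shifted the median log2 difference of all genes in TAM to -0.11 and that of the difference between cell types to -0.18, and under it 10 storage genes, 6 uptake genes and 6 nuclear receptor genes were higher and 2, 2 and 1 lower. Under it Tyrobp lost its call in TAM and no member changed sign there. The split of all called genes in TAM moved from 3452 higher and 3805 lower to 2341 higher and 5225 lower, and that of the difference between cell types from 2030 higher and 2102 lower to 1235 higher and 3122 lower.

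Of 24 other genes of lipid-associated or disease-associated macrophages, 14 rose and 5 fell in TAM, with a median of 0.19. Of all genes tested there, 23.9% were called higher and 26.3% lower. Ctsd, a lysosomal protease, rose by 0.69 ± 0.034 and the chemokine Ccl6 by 0.76 ± 0.040, while Ank, a membrane exporter of pyrophosphate and ATP, fell by 0.83 (SE 0.040). The members and this list thus held genes of both directions in TAM.

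In MDSC few genes of these lists passed, near the 4.28% of all genes tested that passed there, so the low count is no trait of the lists. The scavenger receptor Msr1 fell by 1.16 (SE 0.14) and was the only uptake gene of 11 to pass, Mgll, which hydrolyzes monoglycerides, rose by 1.46 ± 0.14 and Dgat1, which makes triglycerides, by 0.87 ± 0.15 among 18 storage genes, and the tetraspanin Cd63 rose by 2.08 ± 0.22. Serpine2, a serpin below the level set for naming and chosen after its value was seen, was the other of 2 called among 24 further lipid-associated genes (2.79 ± 0.25). Of 11 genes of the nuclear receptor list 0 passed by edgeR, with 2 at an unadjusted p under 0.05 and 1 called by DESeq2. Of 5 lipase cofactors 0 passed by edgeR, at an unadjusted p under 0.05 or by DESeq2. Without the deleted MDSC replicate 2, which leaves a lone deleted library, the list medians were -0.055 for signaling, 0.15 for uptake and -0.0099 for storage. They were -0.16 for nuclear receptors and -0.052 for the further lipid-associated genes.

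**Figure D4:**
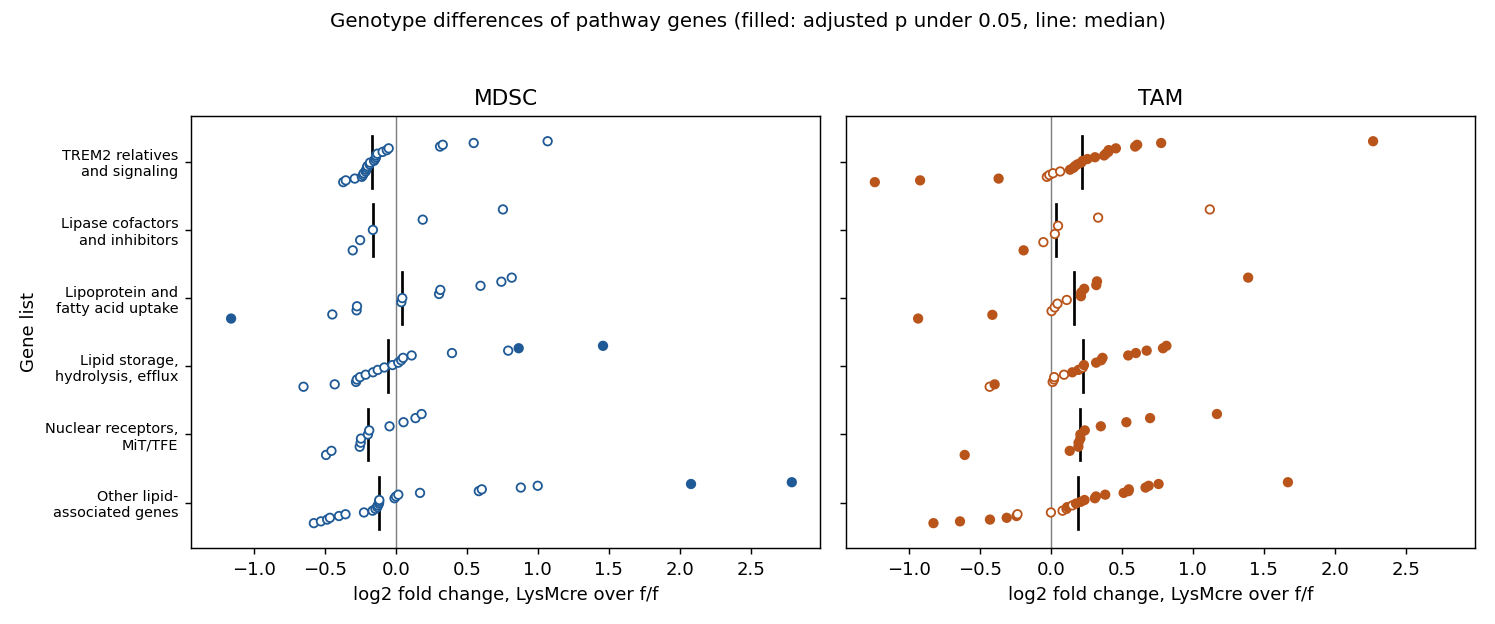
Each point is a gene of a list, placed by its log2 fold change of Shp2f/fLysMcre over Shp2f/f in MDSC (left) and TAM (right), filled where the edgeR adjusted p was under 0.05, with the list median as a line. In TAM most genes of the nuclear receptor list, which includes Srebf1 and Srebf2, and of the storage list lie right of 0 (medians of 0.21 and 0.23). Few points are filled in MDSC, where 4.28% of all genes tested passed.

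In the test of the difference of the genotype effect, which is no comparison of levels, 24.9% of all genes passed (12.2% above, 12.7% below). Its SE and p-values rest on 1 estimate of the spread shared by the cell types. In it the effect in TAM was above that in MDSC for 14 of 24 signaling genes and below it for 1, Ptpn11 itself. The same counts were 7 and 3 of 19 storage genes, 8 and 0 of 11 nuclear receptor genes, 4 and 2 of 12 uptake genes and 12 and 6 of 24 other lipid-associated genes, while 0 of 7 lipase cofactors passed by edgeR, with 2 at an unadjusted p under 0.05 and 1 called by DESeq2. Among these effects, that on Msr1 differed by 1.51 ± 0.12, Rxra by 1.18 ± 0.065, Nceh1 by 0.98 ± 0.15, Axl, a receptor for dying cells, by -1.28 ± 0.17 and Cd63 by -1.90 ± 0.23. In levels between the cell types of control mice, 40% of all genes tested were called higher in TAM and 38.8% lower. The further lipid-associated genes went with the members there, 20 of 24 being higher in TAM and 1 lower (median 0.77). They were led by Cd63 (5.05 ± 0.063) and Timp2, an inhibitor of metalloproteases (2.96 ± 0.050). The cholesterol exporter Abca1 (5.73 ± 0.12) and the phospholipid transfer protein Pltp (4.30 ± 0.055) were also higher in TAM. Of the other lists in that comparison, 7 and 13 of 24 signaling genes, 4 and 1 of 6 cofactors, 8 and 2 of 12 uptake genes, 9 and 8 of 19 storage genes and 4 and 6 of 11 nuclear receptor genes were higher and lower in TAM.

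Markers of other cell types moved with the genotype in the same libraries, here as summed CPM of the total count over each list. Counts of called markers stand beside 50.2% of all genes called in TAM (23.9% higher, 26.3% lower) and 4.28% in MDSC. The macrophage list was at 9555 to 9903 CPM in control TAM and 13920 to 14510 CPM in deleted TAM, and 10 of its 10 genes rose there, among them the complement genes C1qb and C1qa (0.74 ± 0.038 and 0.73 ± 0.042). The list of red pulp macrophages was at 745 to 752 CPM and 1442 to 1549 CPM, with 7 of 8 genes higher and 1 lower. T and NK cell markers were at 20.1 to 20.3 CPM and 6.89 to 8.25 CPM (7 of 8 lower). Monocyte markers were at 3677 to 3813 CPM and 4301 to 4347 CPM (6 of 8 higher, 1 lower). Neutrophil markers summed to 4363 to 4591 CPM and 2293 to 2349 CPM, a fall set by Mmp9 (-1.06 ± 0.031), while 5 of 9 rose. The islet list was at 872 to 6815 CPM and 5.93 to 76.6 CPM (7 of 7 tested lower). Without control TAM replicate 3, which held the most of it, the 8 members named above other than Tyrobp passed in the same direction. The part of these marker changes in the members' differences was not tested.

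In MDSC the neutrophil list was at 9639 and 9974 CPM in the controls and at 30280 and 26150 CPM in the deleted cells. By edgeR 5 of 10 genes were called higher, led by Ngp (2.57 ± 0.20), Ltf (2.49 ± 0.22) and S100a9 (1.63 ± 0.14). The list median of 1.14 became 1.38 without deleted replicate 2. The macrophage list was at 1292 and 1371 CPM against 984 and 1104 CPM. The monocyte list was at 9068 and 9174 against 10540 and 8628 CPM. By edgeR 0 of its 8 genes were called, with 4 at an unadjusted p under 0.05, 4 called by DESeq2 and a median log2 difference of -0.32. Within it the TMM-scaled means of control and deleted MDSC were 2401 and 4350 CPM for Chil3 and 498 and 541 CPM for Ly6c2. The other genes of that list had lower means in the deleted cells, among them Ccr2 (1934 and 1346 CPM). In the libraries with the higher neutrophil sum, Trem2, Tyrobp, Gpnmb, Fabp5 and Spp1 were lower, Apoe was nearly equal, and Cd9, Lpl, Fabp4 and Lipg were higher. Of these only Cd9 passed by edgeR, and Trem2 and Lipg were not tested. The part of the neutrophil sum in the levels of the members was not tested. The erythroid list was at 225 and 256 against 427 and 630 CPM (6 of 8 called higher). The fibroblast list was at 1458 to 1697 CPM in all 4 MDSC libraries because of Fn1, which macrophages also express, and its median log2 difference of 4.0 came from deleted replicate 2, with 0 of 11 called by edgeR, 8 at an unadjusted p under 0.05 and 2 called by DESeq2. Fibroblast markers in TAM were at 1226 to 1261 CPM and 1105 to 1187 CPM, with 1 higher and 4 lower of 12.

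The remaining lists were small. Endothelial markers were at 26.6 to 48.2 CPM in MDSC (0 of 6 called by edgeR, 1 at an unadjusted p under 0.05, 0 by DESeq2) and at 74.6 to 114 CPM in TAM, where 3 of 6 were higher in the deleted cells. Dendritic cell markers were at 49.5 to 56.7 CPM in MDSC (1 of 7 higher) and at 10.6 to 17.1 CPM in TAM (3 of 6 lower). B and plasma cell markers were at 192 to 357 CPM in MDSC (2 of 8 lower) and at 4.42 to 11.3 CPM in TAM (1 of 3 tested higher). In MDSC the red pulp macrophage list was at 519 to 875 CPM (1 of 8 higher), T and NK cell markers at 29.04 to 47.45 CPM (1 of 8 higher) and islet markers at 6.87 to 9.30 CPM (0 of 3 called by edgeR, at an unadjusted p under 0.05 or by DESeq2), and erythroid markers in TAM were at 5.12 to 11.6 CPM (3 of 5 higher). Adipocyte markers summed to no more than 1.51 CPM in any library.

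Other marker values also moved when a library that stood apart was left out. In MDSC without deleted replicate 2, with a lone deleted library, list medians were -0.34 for macrophage, -0.31 for monocyte and 0.25 for red pulp macrophage genes. They were 0.18 for dendritic cell, -1.19 for B and plasma cell and 0.95 for erythroid genes. T and NK cell genes were then at 0.16, fibroblast genes at -0.31 and endothelial genes at 0.079. In TAM without control replicate 3, the signaling genes had 15 higher and 3 lower, the nuclear receptor genes 8 and 1, the lipase cofactors 1 and 1 of 6, and the other lipid-associated genes 15 and 5. Monocyte genes then had 5 higher and 1 lower, dendritic cell genes 2 lower of 5, B and plasma cell genes 2 higher of 4 and endothelial genes 2 higher of 6.

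**Figure D5:**
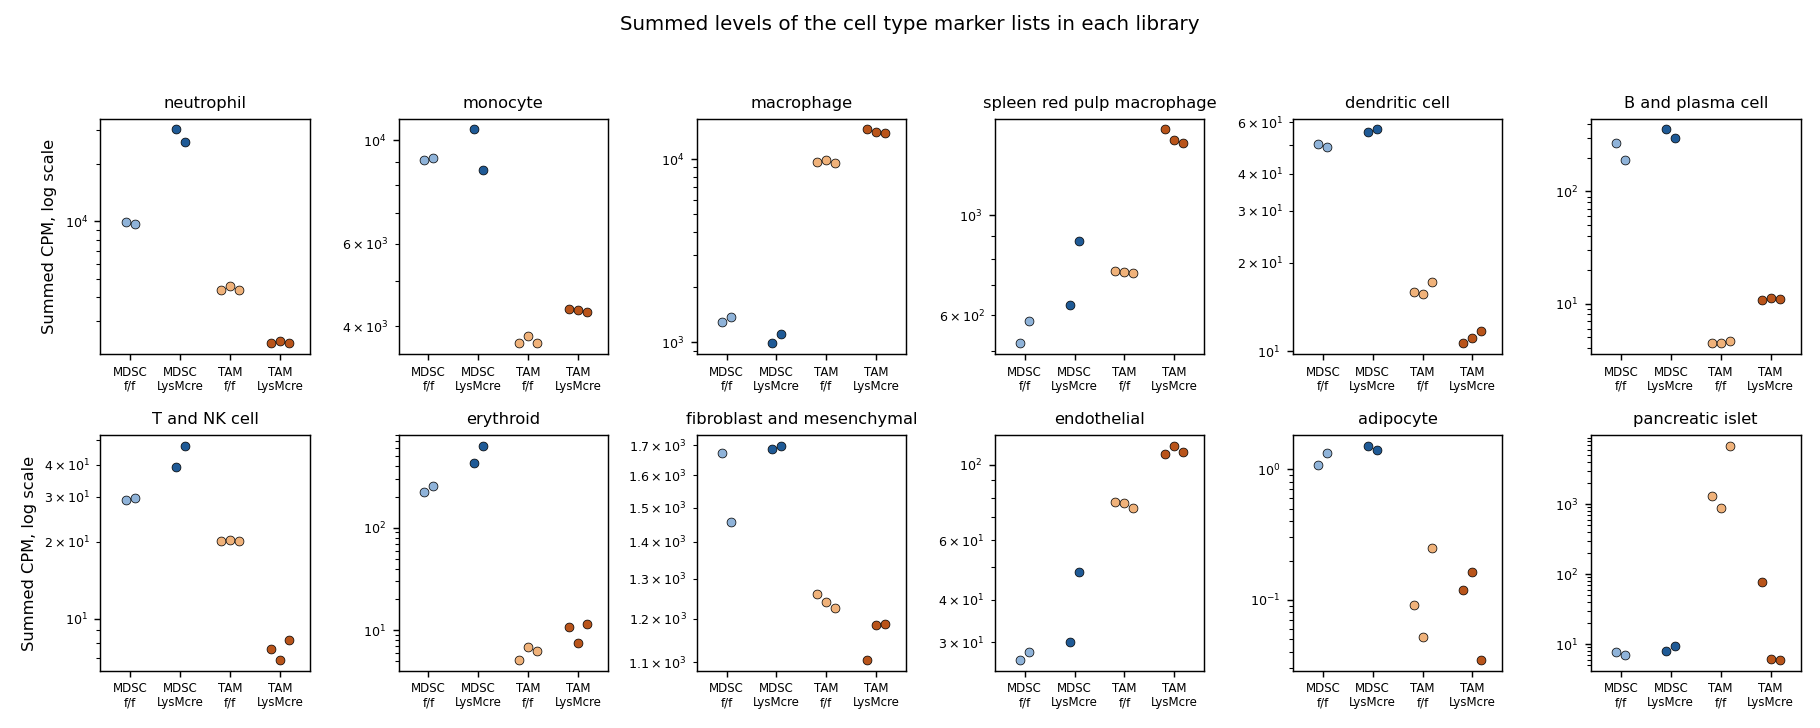
Each panel gives the summed CPM of the total count of a marker list on a log axis, whose range differs between panels, with libraries as points in the 4 groups. The macrophage sum is higher in the deleted than in the control TAM, the neutrophil sum is higher in the deleted MDSC, and the islet sum reaches 6815 CPM in control TAM replicate 3.

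Across all 10 libraries, the genes whose pattern was most like that of Trem2 were Vim, an intermediate filament protein, Ang, a secreted ribonuclease, Lat2, a membrane adaptor, Eogt, a glycosyltransferase, and Naf1, an assembly factor of small nucleolar ribonucleoproteins. Likeness was the root mean square difference of log2 CPM after each gene was centred on its mean, over 10 samples and among 8849 genes averaging 10 CPM or more, and it was 0.172 for Vim to 0.185 for Naf1. Lat2 was at 130 and 92.1 CPM in control and deleted MDSC and at 193 and 173 CPM in control and deleted TAM. Fabp4 averaged below 10 CPM and was not compared. Of the 8 other members compared, Cd9 had the smallest value, at 0.746 and rank 5989 of 8849 genes. Tyrobp at 0.753 and Spp1 at 0.755 followed, and Lipg was farthest at 2.26. The measure grows with the size of a gene's differences, so a small value need not mean the same direction. In MDSC the log2 difference between genotypes was 1.13 for Cd9 and -1.01 for Trem2.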

How the data were processed

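RNA was sequenced as polyA-selected, strand-marking libraries from 10 samples in 4 groups, with paired-end reads. The authors trimmed reads with cutadapt 2.5, checked them with FastQC 0.11.5, aligned them to GRCm38 with STAR 2.7.3a and counted them over Ensembl release 98 genes with featureCounts (Subread 1.6.2). The deposited values used here are raw counts per gene. The strand setting of the counting is not given in the sources used here. A second deposited table of DESeq2-normalized values was not used.

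Identifiers were matched to symbols in the GRCm38 annotation, which covered 99.67% of 55421 genes, and 220 of 221 list entries matched. The members and the lists were chosen with earlier results of these data known. Named list genes come from the 3 with the largest absolute log2 difference per list and comparison among called genes that average 10 CPM or more, fewer where fewer were called. Genes outside this rule are marked in the text, and some list genes are not reported here.

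Each of 4 comparisons was fitted with the quasi-likelihood test of edgeR 4.0.16 (R 4.3.3), after filterByExpr with a minimum count of 10 and TMM scaling, and p-values were adjusted by Benjamini-Hochberg over all genes tested, at a threshold of 0.05. SE is the absolute log2 fold change divided by the square root of the F statistic. Levels are CPM after TMM scaling over the 10 libraries, and marker sums are CPM of the total count. RPKM divides the TMM-scaled CPM by the joined length of all annotated exons of a gene. Likeness to Trem2 used log2 CPM plus 0.5. Replicates differed beyond sampling noise in every group, so no library was counted as a repeat deposit. Alternatives were DESeq2 1.42.0, its size factors, total count scaling, no filter, a filter of CPM of at least 1 in 2 samples, limma 3.58.1 (voom with quality weights), a replicate block, a fit of all 10 samples and leaving out each library. List counts and medians without the libraries that stood apart and under other scalings were added after seeing the data.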

Additional observations from a re-analysis of the deposited data

Results flagged for a closer look

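The difference between Shp2f/fLysMcre and Shp2f/f cells was not the same in TAM as in MDSC for 7 of the 8 members tested, by a test of the difference itself (edgeR interaction, adjusted p under 0.05). That test shares 1 estimate of the spread between the cell types, although the MDSC libraries varied more, so its p-values may be too small. On the log2 scale, the effect in TAM minus that in MDSC was 0.38 for Tyrobp, 1.05 for Apoe, 0.88 for Gpnmb, 1.30 for Fabp5 and 1.36 for Spp1, and it was -1.40 for Lpl and -1.63 for Cd9. In this test 24.9% of all genes passed, Ptpn11 among them at -0.93, and its own log2 difference in MDSC was -0.29 (edgeR adjusted p = 0.361), so that a loss of the targeted transcript is not evident in those libraries. Direction and call held for Apoe, Gpnmb, Lpl, Fabp5, Spp1 and Cd9 under all 17 alternatives, and the call of Tyrobp was lost under 6 of them. The MDSC libraries of the deleted genotype also held more neutrophil transcripts, and the control TAM libraries held islet transcripts; their part in these differences was not tested.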

How the results depend on the processing

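The MDSC comparison, with 2 libraries a genotype, depended most on the setting. Against 1 member and 633 genes called by edgeR there, DESeq2 called 3 and 1256, no filter on low counts left 0 (with 5 at an unadjusted p under 0.05) and 130, and 1 fit of all 10 samples gave 5 and 2666. Leaving out each library gave 0 to 5 members and 1 to 4406 genes, the lowest without either control and the highest without deleted replicate 1, each with a lone library assumed to vary like the other group. For the genotype in TAM the fit of all 10 samples called 4837 genes in place of 7257, and members called stayed at 8 or 9. In the test of the difference between cell types, leaving out each library gave 2446 to 7023 genes against 4132, and 6 or 7 members.

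Same-numbered libraries did not deviate together in TAM (correlations of -0.13, 0.051 and 0.022) or across cell types (-0.12 to 0.051), and in MDSC the correlation was 0.29, which 2 libraries a group give to both pairs alike, so numbers were not taken to pair samples. With the replicate block 5 members and 2674 genes were called in MDSC, and elsewhere the block ended only the call of Tyrobp in TAM.

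Apoe in MDSC, at -0.010, turned to 0.038 with total count scaling, to 0.0092 with the CPM filter, to 0.10 without control replicate 2 and to 0.057 without deleted replicate 1, and leaving out each library gave -0.118 to 0.10. The difference of effects for Fabp4, at -0.084, turned to 0.18 both without control MDSC replicate 1 and without deleted MDSC replicate 2, in a range of -0.376 to 0.184. Neither gene passed in any of these. No other member changed sign under any alternative, the 8 members tested between cell types all kept their calls, and the cause of these changes was not tested. Depth limits Fabp4, at no more than 6.42 CPM in any library, and Lipg in control MDSC, at 1.25 and 1.07 CPM.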
